A study of Mus musculus with 8 samples.

Results

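JAK-STAT signalling was examined through 9 genes in cultured mouse satellite cells, which are the stem cells that repair muscle: the kinase genes Jak1 and Jak2, the transcription factor genes Stat2, Stat3, Stat5a, Stat5b and Stat6, and the inhibitor genes Socs2 and Socs3. They were taken by name from the probe annotation of the arrays, which gave 16 probes of 55501 and 9 genes of 27109 tested. C57BL/6J mice, 3 to 4 months old, gave the cells from their hindlimb muscle. They were sorted, cultured overnight and transduced with lentivirus. The control group carried genomically integrated eGFP cDNA and the other group integrated Hoxa9 cDNA with eGFP, so both groups share the virus, the integration and the eGFP. In both, eGFP-positive cells were sorted 5 days after transduction. Each group comprised 4 one-colour Agilent arrays, replicates 1 to 4. The promoter that drives the transgene and the number of integrations are not given in the sources used here. Whether the 4 samples in each group had separate animals as their source is not in the labels. All p-values therefore measure the spread between these samples, and the number of arrays limits the precision.

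In this pathway a cytokine or growth hormone brings its receptor chains together, and the JAK kinases bound to them phosphorylate the receptor and then STAT proteins, which pair, enter the nucleus and switch on genes. SOCS proteins are among those genes and act back on receptors and kinases to end the signal. In satellite cells the pathway is known for setting the balance between proliferation and differentiation, with STAT3 as the factor studied most. Transcript levels were measured here, and phosphorylation, which carries the signal, was not.

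Levels are log2 processed intensities relative to the 75th percentile of the same array, and differences are Hoxa9-eGFP minus eGFP on that scale with n = 4 arrays per group. A gene was called higher or lower at an adjusted p under 0.05 (limma, Benjamini-Hochberg over all genes, two-sided). Of all 27109 genes tested, 7.83% were called higher and 7.42% lower. Transcript amounts in a whole sample cannot tell fewer cells of a type from less RNA per cell. Hoxa9 itself read -0.98, -0.71, -0.14 and -0.04 on the eGFP arrays and 5.31, 5.44, 5.48 and 5.81 on the Hoxa9-eGFP arrays, as the labels say. All 10 satellite cell and myoblast markers were well above background on all 8 arrays, but 6 were lower with Hoxa9, Pax7 by a log2 difference of -1.30 and Vcam1 by -2.59, and the mean of the list was 4.10 to 4.25 on eGFP arrays and 3.13 to 3.33 on Hoxa9-eGFP arrays. Of 10 leukocyte markers, Ptprc was well above background on 2 arrays and Lyz2 and Tyrobp on 1 array each, and the endothelial marker Tie1 was on 0 arrays. The 7 measured leukocyte markers had 0 higher and 0 lower, with a mean of -0.41 to 0.08 on eGFP arrays and -0.68 to 0.34 on Hoxa9-eGFP arrays. Fibroblast markers were measured in full, with 1 of 8 higher (Ly6a, by 4.55), 0 lower and a list mean of 0.06 to 1.34 on eGFP arrays and 0.44 to 2.12 on Hoxa9-eGFP arrays. The 3 of 6 endothelial markers that were measured had 0 higher and 0 lower, with a mean of -1.02 to -0.18 on eGFP arrays and -2.14 to -0.68 on Hoxa9-eGFP arrays. Among 6 smooth muscle and pericyte markers Cnn1 was higher by 2.57 and Acta2 lower by -1.32, with a list mean of -1.81 to -0.77 and -1.49 to -0.35. With the replicate block 5 satellite cell markers were lower, and 2 fibroblast markers were higher (Ly6a and Thy1) and 1 lower (Lum). The block also left 1 endothelial marker lower (Cdh5), and 2 smooth muscle markers higher (Cnn1 and Myh11) and 1 lower (Acta2). The part of any of these cell types in the results for the 9 genes was not tested.

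In the main fit, with the group as its only term, 5 of the 9 genes were higher with Hoxa9 (Jak1, Jak2, Stat2, Stat3 and Stat5a). In the same fit 0 were lower and 4 were not called (Stat5b, Stat6, Socs2 and Socs3). Over all genes tested, 7.83% were called higher and 7.42% lower. By role, 2 of 2 kinases and 3 of 5 STAT factors were higher, and 0 of 2 SOCS inhibitors. In the same 5 genes every Hoxa9-eGFP array lay above every eGFP array, which held for 11.1% of all genes. Of the 5, Jak2 and Stat3 were at least 2-fold higher, as were 5.01% of all genes. The median difference of the 9 genes was 0.59, beside -0.07 over all genes. With the replicate number as a block 3 genes were called, Jak2, Stat3 and Stat5a, all higher, and Jak1 and Stat2 were not, while 8.5% of all genes were called higher and 7.88% lower. All 9 differences were above 0, though that of Socs2 turned below 0 under other scalings and that of Stat6 with normexp background correction.

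**Figure D1:**
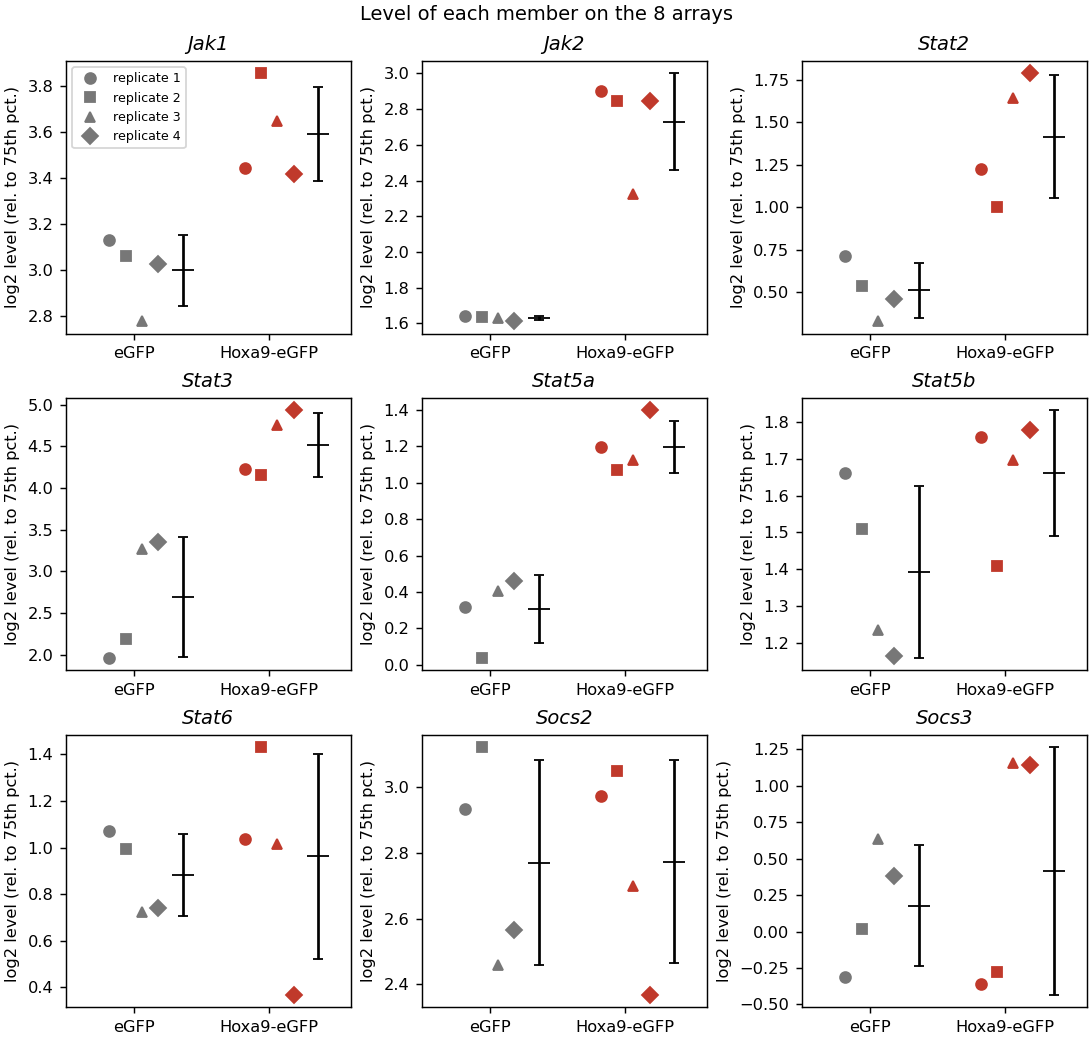
Each panel plots the log2 level of 1 gene (relative to the array's 75th percentile; the axes differ in range) on the 4 eGFP arrays (grey) and the 4 Hoxa9-eGFP arrays (red), with the marker shape giving the replicate number and black bars the mean and SD. The groups are apart in Jak1, Jak2, Stat2, Stat3 and Stat5a and overlap in Stat5b, Stat6, Socs2 and Socs3.

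The kinases come first, since they start the signal. Jak2, the kinase of the growth hormone, erythropoietin and leptin receptors and one of those bound to gp130, read 1.64, 1.64, 1.63 and 1.61 on the eGFP arrays and 2.90, 2.85, 2.32 and 2.84 on the Hoxa9-eGFP arrays. The control arrays lay very close together, and replicate 3 of the Hoxa9-eGFP group was lower than the other 3 while still above every control. The means were 1.63 ± 0.012 (SD, n = 4) and 2.73 ± 0.27, a rise of 1.10 (SE 0.16, adjusted p = 0.00262, limma), or 2.14-fold. The probe lies at chr19:29387487-29387546 (mm9, plus strand). Within the 3 slides the difference was 1.21, 1.25 and 0.71.

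Jak1, which pairs with other JAK kinases on gp130, interferon and common-chain receptors, read 3.13, 3.06, 2.78 and 3.03 with eGFP and 3.45, 3.86, 3.65 and 3.42 with Hoxa9-eGFP. The groups did not overlap. The difference was 0.59 (SE 0.16, adjusted p = 0.0372, limma), or 1.51-fold, from means of 3.00 ± 0.15 and 3.59 ± 0.20 (SD, n = 4). This call is close to the threshold. It was kept in 7 of 19 other settings, and it was lost when any array but replicate 4 of the Hoxa9-eGFP group was left out (adjusted p up to 0.0943). The replicate block gave an adjusted p of 0.0663 and the slide block 0.0993. The Jak1 probe lies at chr4:100825094-100825153 (mm9, minus strand).

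The level of Jak1 relative to Jak2 on the same array, centred on the control mean, was 0.12, 0.05, -0.22 and 0.04 on eGFP arrays and -0.83, -0.36, -0.05 and -0.80 on Hoxa9-eGFP arrays. In replicate 3 of the Hoxa9-eGFP group this ratio fell within the control range, so the groups overlapped. The other kinases of the family, Tyk2 and Jak3, were not called. Tyk2, which serves interferon and IL-12 family receptors, differed by 0.64 (SE 0.20, adjusted p = 0.0728, limma) with groups that did not overlap. Jak3, the partner of the common gamma chain, differed by 0.69 (adjusted p = 0.143).

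Among the STAT factors Stat3 had the largest difference of the 9 genes. Stat3, the factor that gp130 receptors act through, read 1.96, 2.19, 3.27 and 3.35 on the eGFP arrays and 4.23, 4.16, 4.75 and 4.93 on the Hoxa9-eGFP arrays. Replicates 1 and 2 were lower than replicates 3 and 4 in both groups, and the lowest Hoxa9-eGFP array was still above the highest control. The mean rose from 2.69 ± 0.72 to 4.52 ± 0.38 (SD, n = 4), a difference of 1.82 (SE 0.36, adjusted p = 0.0113, limma) or 3.54-fold. Same-numbered arrays differed by 2.27, 1.96, 1.48 and 1.58, and the replicate block gave an adjusted p of 0.00491. On slide 1, where Hoxa9-eGFP replicate 4 was set against eGFP replicates 1 and 2, the difference was 2.86. It was 0.93 on slide 2, where Hoxa9-eGFP replicates 1 and 2 were set against eGFP replicate 3, and 1.40 on slide 3, so the size depends on which replicates are set against each other.

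The probe used for Stat3 lies at chr11:100749598-100749657 (mm9, minus strand), and a second Stat3 probe was measured as well. The second probe was dim, at -3.60, -3.74, -2.31 and -2.35 on eGFP arrays and -1.12, -1.72, -0.87 and -0.57 on Hoxa9-eGFP arrays, yet well above background on all 8. Its difference was 1.93 (SE 0.41, adjusted p = 0.0163 over all probes, limma), with replicates 1 and 2 again the lowest of each group.

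Stat2, which acts with Irf9 in the response to interferon, read 0.71, 0.54, 0.33 and 0.46 with eGFP and 1.23, 1.003, 1.64 and 1.79 with Hoxa9-eGFP. Every Hoxa9-eGFP array was above the controls, with replicates 3 and 4 above replicates 1 and 2. The mean rose from 0.51 ± 0.16 to 1.42 ± 0.36 (SD, n = 4), a difference of 0.91 (SE 0.20, adjusted p = 0.0190, limma) or 1.87-fold. The replicate block moved the adjusted p to 0.0506. It was 0.0526, 0.0562 and 0.0561 without eGFP replicate 2, eGFP replicate 3 or Hoxa9-eGFP replicate 3, so the call was lost in each case. Within slides the difference was 1.16, 0.79 and 1.18. The Stat2 probe lies at chr10:127729834-127729893 (mm9, plus strand).

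The Stat2 promoter is shown because it alone among the promoters searched held the letters of an interferon-stimulated response element. RefSeq promoters were matched for 8 of the 9 genes, all but Socs2, in 10 windows, and the 250 bases before each start were searched on both strands. The window before the Stat2 start is chr10:128270248-128270497 (GRCm38.p6, plus strand). Capitals mark 2 matches that do not overlap. TTTCAGTTTC, from 222 to 213 bases before the start, matches the interferon-stimulated response element, searched as TTTC and TTTC with any 2 bases between them. TTCCCTAGAA, from 210 to 201 bases before the start, matches the STAT6 form of the STAT site, searched as TTC and GAA with any 4 bases between them. Of all 32851 RefSeq promoter windows of this length, 2.98% held the first motif and 5.85% the second.
Stat2 promoter: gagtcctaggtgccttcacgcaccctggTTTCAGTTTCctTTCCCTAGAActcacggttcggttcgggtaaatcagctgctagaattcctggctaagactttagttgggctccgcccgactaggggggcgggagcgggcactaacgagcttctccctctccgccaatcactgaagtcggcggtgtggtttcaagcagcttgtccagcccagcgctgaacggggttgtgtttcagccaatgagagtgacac

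Stat5a and Stat5b, a pair of near-identical factors that act downstream of growth hormone, prolactin and many cytokines, differed in their calls. Stat5a read 0.32, 0.04, 0.41 and 0.46 on eGFP arrays and 1.20, 1.07, 1.13 and 1.40 on Hoxa9-eGFP arrays, with both groups narrow and apart. The difference was 0.89 (SE 0.15, adjusted p = 0.00516, limma), or 1.86-fold, from 0.30 ± 0.19 to 1.20 ± 0.14 (SD, n = 4). Stat5b read 1.66, 1.51, 1.23 and 1.16 against 1.76, 1.41, 1.70 and 1.78, so that the groups overlapped through replicate 2 with Hoxa9-eGFP. Its difference of 0.27 (SE 0.17) was not called (adjusted p = 0.347, limma), and its second probe differed by 0.13 (adjusted p = 0.678 over all probes). The level of Stat5a relative to Stat5b on the same array, centred on the control mean, gives the comparison of the pair without a test. It was -0.26, -0.39, 0.26 and 0.38 with eGFP and 0.53, 0.75, 0.52 and 0.71 with Hoxa9-eGFP, so every Hoxa9-eGFP array was above every control.

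Stat6, the factor of IL-4 and IL-13 signalling, read 1.07, 0.99, 0.72 and 0.74 with eGFP and 1.04, 1.43, 1.02 and 0.37 with Hoxa9-eGFP. The Hoxa9-eGFP arrays spread on both sides of the controls, with replicate 2 the highest of all 8 arrays and replicate 4 the lowest. The difference was 0.08 (SE 0.23, adjusted p = 0.843, limma), and it was -0.01 with normexp background correction. The other Stat6 probes differed by 0.15 and 0.16 and were not called. Stat4, another STAT gene, was not well above background on 4 or more arrays and was not tested.

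**Figure D2:**
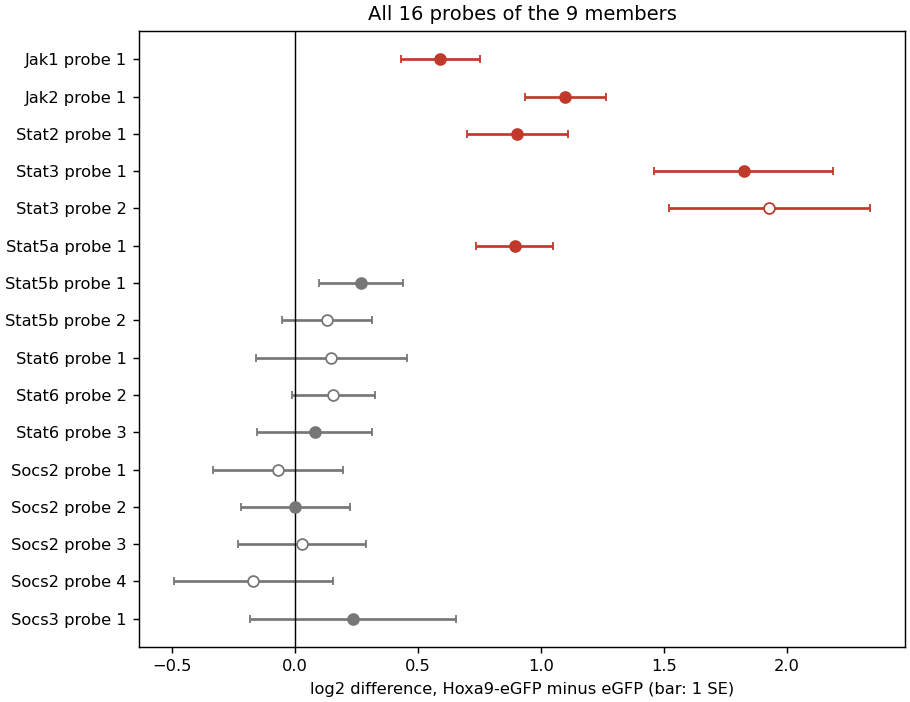
The points are the log2 differences (Hoxa9-eGFP minus eGFP) of all 16 probes of the 9 genes with bars of 1 SE; filled points are the probes that stand for the gene, and red marks probes called higher. The 6 probes called higher are those of Jak1, Jak2, Stat2 and Stat5a and both of Stat3, and probes of the same gene lie close together.

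All 16 probes were well above background on all 8 arrays. Of them 6 were higher and 0 lower, against 6.82% of all kept probes called higher and 6.65% lower, and 14 had a difference above 0. Where a gene had more than 1 probe, the probes fell on the same side of the threshold. The 3 genes Stat5b, Stat5a and Stat3 lie next to each other on chromosome 11. The Stat5a probe, at chr11:100746373-100746432 (mm9, plus strand), ends 3.17 kb from the first Stat3 probe, which is on the other strand, and the nearer Stat5b probe lies 104 kb away. The 3 genes on each side of this trio in the RefSeq order were looked at after the values were seen. Ghdc, next to Stat5b, was higher by 1.22 (adjusted p = 0.00101, limma), while Cavin1, next to Stat3, differed by -0.02 (adjusted p = 0.951). Kcnh4, Hcrt, Atp6v0a1 and Naglu were not called, at -0.20, -0.26, 0.69 and 0.61. Calls in this stretch thus did not follow the order of the genes, since Stat5b between Ghdc and Stat5a was not called.

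The SOCS inhibitors, which STAT proteins switch on and which then end the signal, were not called. Socs3, the inhibitor that binds gp130 and the JAK kinase beside it, read -0.31, 0.02, 0.63 and 0.38 on the eGFP arrays and -0.36, -0.27, 1.16 and 1.15 on the Hoxa9-eGFP arrays. Replicates 1 and 2 were low and replicates 3 and 4 high in both groups, and this split was wider than the difference between the groups. The means were 0.18 ± 0.41 and 0.42 ± 0.85 (SD, n = 4), a difference of 0.24 (SE 0.42, adjusted p = 0.736, limma). Same-numbered arrays differed by -0.05, -0.29, 0.53 and 0.77, and the slides gave 1.29, -0.95 and 0.78. With an SE of this size a change like that of Jak1 was not detectable for Socs3. The Socs3 probe lies at chr11:117827480-117827539 (mm9, minus strand).

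The Socs3 promoter is shown because it alone among those of the 8 genes searched held TTCNNNGAA, the letters of the classical STAT site. Its window is chr11:117969367-117969616 (GRCm38.p6, minus strand), and the capitals mark TTCTTAGAA from 154 to 146 bases before the start. This motif occurs in 7.02% of all RefSeq promoter windows of the same length. A match of letters is a description and does not show binding. The letters TGATTTAT, a site for Hox proteins with Pbx, were in none of the 10 windows of the 8 genes searched. They were in 0.837% of all windows. Socs2 had no window and was not searched for any motif.
Socs3 promoter: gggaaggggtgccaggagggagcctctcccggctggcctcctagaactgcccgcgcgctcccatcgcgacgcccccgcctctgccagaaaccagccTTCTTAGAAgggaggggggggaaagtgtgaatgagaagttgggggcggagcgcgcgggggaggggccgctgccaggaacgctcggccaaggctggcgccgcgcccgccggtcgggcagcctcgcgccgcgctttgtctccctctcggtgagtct

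Socs2, the inhibitor that limits growth hormone signalling, read 2.93, 3.12, 2.46 and 2.57 with eGFP and 2.97, 3.05, 2.70 and 2.37 with Hoxa9-eGFP. Here replicates 1 and 2 were high and 3 and 4 low in both groups, the opposite order to Socs3, and the groups covered nearly the same range. The difference was 0.0029 (SE 0.22, adjusted p = 0.994, limma), and its sign turned under several settings. The 4 Socs2 probes differed by -0.07, 0.0029, 0.03 and -0.17, and none was called. The first of them lies 27.0 kb from the others, at chr10:94848005-94848064 (mm9, minus strand), and carries another transcript in the files. The probe at chr10:94875468-94875527 had the widest spread, from 1.02 to 2.30 on eGFP arrays. Its sequence is given as the Socs2 probe farthest up the gene from the one used.
Socs2 upstream probe: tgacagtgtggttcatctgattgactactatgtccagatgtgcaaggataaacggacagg

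**Figure D3:**
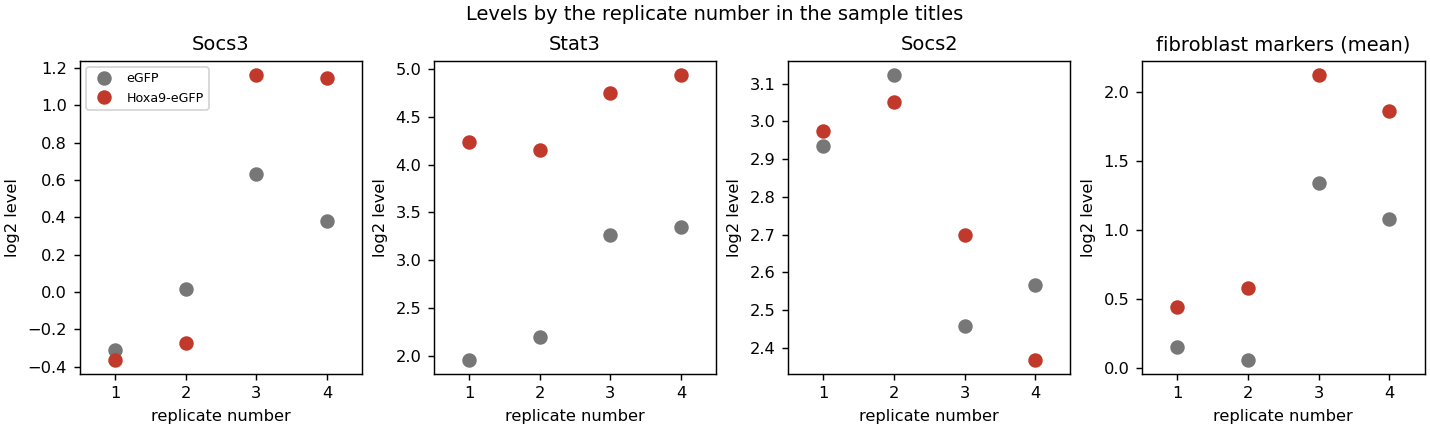
The log2 levels of Socs3, Stat3 and Socs2 and the mean level of the 8 fibroblast and fibro-adipogenic markers are plotted against the replicate number in the sample titles, with eGFP arrays in grey and Hoxa9-eGFP arrays in red. Socs3, Stat3 and the marker mean are lower in replicates 1 and 2 than in 3 and 4 in both groups, Socs2 is higher in them, and Stat3 alone of the 3 genes has its groups apart.

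The same split by replicate number was seen in the means of 3 marker lists of other cell types, but not in that of the leukocyte markers. The leukocyte mean was -0.41, -0.07, -0.27 and 0.08 on the eGFP arrays and -0.36, -0.09, -0.68 and 0.34 on the Hoxa9-eGFP arrays. The mean of the 8 fibroblast markers was 0.15, 0.06, 1.34 and 1.08 on the eGFP arrays and 0.44, 0.58, 2.12 and 1.86 on the Hoxa9-eGFP arrays, with replicates 3 and 4 high in both groups, as for Socs3 and Stat3. Within that list Cd34 ran the other way on Hoxa9-eGFP arrays, at 4.02, 4.14, 3.38 and 2.57. Pdpn and Pdgfra did not split on the eGFP arrays, at 5.61, 5.41, 5.54 and 5.61 for Pdpn and -1.76, -2.28, -1.33 and -2.11 for Pdgfra. The mean of the 3 measured endothelial markers was -0.84, -1.02, -0.18 and -0.37 with eGFP and -1.81, -2.14, -0.68 and -0.9999 with Hoxa9-eGFP. That of the 6 smooth muscle and pericyte markers was -1.54, -1.81, -0.87 and -0.77 with eGFP and -1.49, -1.41, -0.35 and -0.84 with Hoxa9-eGFP. In both list means, too, replicates 3 and 4 were above replicates 1 and 2 in each group. Single genes did not all do so, and Pecam1, Cnn1 and Rgs5 did not on the Hoxa9-eGFP arrays. The mean of the 10 satellite cell and myoblast markers did not split this way. It was 4.25, 4.10, 4.22 and 4.22 with eGFP and 3.33, 3.29, 3.23 and 3.13 with Hoxa9-eGFP. Within that list Myog did split, at 6.05, 5.83, 7.28 and 7.24 with eGFP and 5.36, 5.45, 6.22 and 6.30 with Hoxa9-eGFP. The gene whose levels were most like those of Socs3 over the 8 arrays was the fibroblast marker Dcn (Pearson r = 0.963, a description over arrays that share 2 groups), followed by Acot3 (0.963). Dcn read -0.31, -0.52, 1.50 and 0.88 with eGFP and -1.03, -0.68, 2.06 and 1.72 with Hoxa9-eGFP. Within each same-numbered pair Stat3 was higher with Hoxa9, by at least 1.48, and so was the mean of the 8 fibroblast markers. That mean includes Ly6a, which differed by 4.55 and was the only marker of the list called in the main fit. Of the others, Thy1, Col1a1, Cd34, Pdpn and Dcn differed by 1.62, 0.97, 0.42, 0.28 and 0.13. Lum and Pdgfra differed by -2.60 and -0.63, so the markers did not rise as a group. The part of RNA from the other cell types in the levels of Socs3 and Stat3 was not tested.

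The genes most like each of the others were named in the same way among 15804 genes with a RefSeq accession. For the called genes these were Camta2 and Vps28 for Jak1 (r = 0.993 and 0.988), Gem and Gm20878 for Jak2 (0.996 and 0.989), Xkr8 and Smagp for Stat2 (0.986 and 0.984), Serpinb1c and Fras1 for Stat3 (0.997 and 0.996) and Lrba and Iscu for Stat5a (0.993 and 0.992). For the others they were Cnst and Cyb561a3 for Stat5b (0.989 and 0.981), Wfikkn1 and Pcgf1 for Stat6 (0.993 and 0.988) and Rabep2 and Rcor3 for Socs2 (0.981 and 0.975). With so many genes and 8 arrays, correlations of this size are found for called and uncalled genes alike. Among the 9 genes, Stat5a correlated with Stat3 (r = 0.937) and Jak2 (0.926), and Socs2 went against Socs3 (-0.802). Stat5a, Stat3 and Jak2 were all called higher, and that group difference by itself raises their correlations over the 8 arrays.

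Activators and inhibitors were also set against each other on the same array, as log2 ratios centred on the control mean and with no test. Stat3 relative to Socs3 was -0.24, -0.34, 0.12 and 0.46 on eGFP arrays and 2.08, 1.92, 1.08 and 1.27 on Hoxa9-eGFP arrays, so the groups did not overlap. Stat5a relative to Socs2 was -0.15, -0.62, 0.41 and 0.36 with eGFP and 0.69, 0.49, 0.89 and 1.50 with Hoxa9-eGFP, and again the groups were apart, narrowly. Socs2 relative to Socs3 overlapped between the groups, with means of 0 ± 0.69 and -0.24 ± 1.13 (SD, n = 4).

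Of the 6 other SOCS family genes 1 was higher, 1 was lower and 4 were not called, with a median of -0.22. Cish, a STAT5-induced inhibitor of the same family, read -1.37, -1.38, -2.17 and -2.46 with eGFP and 0.06, -0.29, 0.19 and 0.51 with Hoxa9-eGFP. Every Hoxa9-eGFP array was above every control, and the difference was 1.96 (SE 0.30, adjusted p = 0.00314, limma), or 3.89-fold. Socs1, which inhibits JAK kinases directly and is known as a brake on interferon signals, was lower, from -0.36, -0.23, -0.13 and -0.10 to -0.96, -0.89, -0.53 and -0.71. Its groups did not overlap and its difference was -0.57 (SE 0.15, adjusted p = 0.0353, limma). Socs4, Socs5, Socs6 and Socs7 were not called, at -0.23, -0.25, -0.21 and -0.0040.

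**Figure D4:**
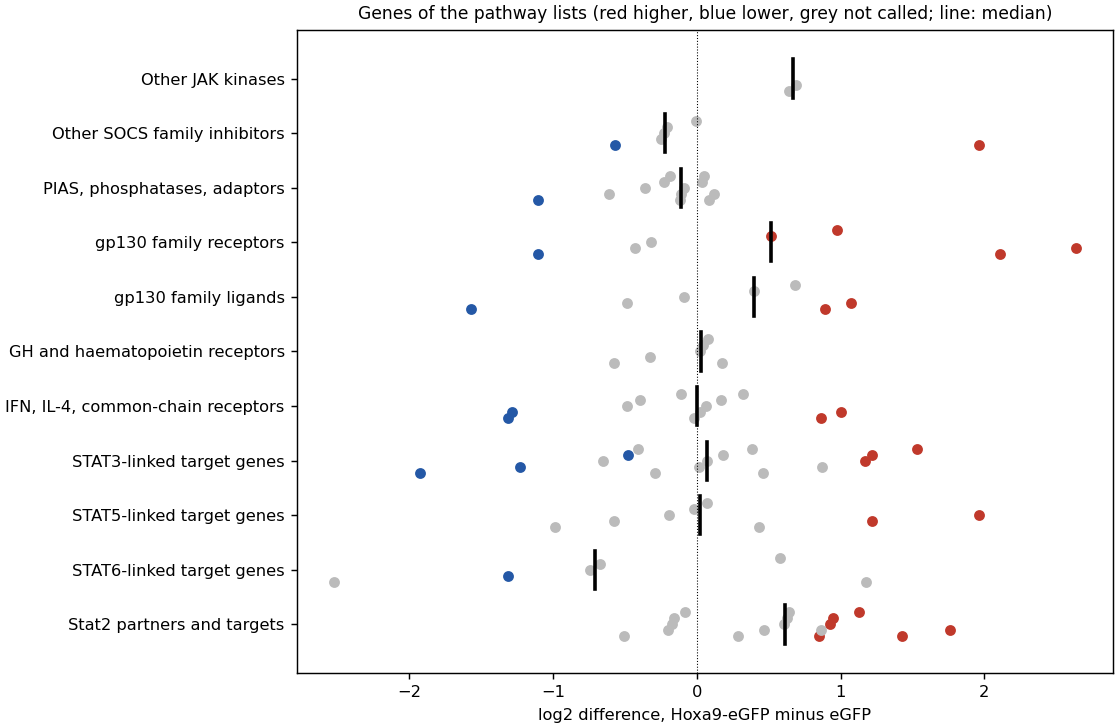
Each point is the log2 difference (Hoxa9-eGFP minus eGFP) of 1 measured gene, in rows for 11 lists of other pathway genes, with red for genes called higher, blue for lower, grey for not called and a black line at the list's median; 1 gene that is not reported is left out of the points. The gp130 receptors hold 4 red points and 1 blue, and the Stat2 partners and targets 6 red and 0 blue.

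Of 94 distinct genes on the 12 lists of other pathway genes, 18 were higher and 9 lower, with a median difference of 0.03. Over all genes tested, 7.83% were higher and 7.42% lower, with a median of -0.07. These shares stand beside the counts of each list, and no list was tested as a set. The gp130 family receptors, through which IL-6, IL-11, LIF and oncostatin M reach STAT3, had 4 of 7 measured genes higher and 1 lower, with a median of 0.52. Il11ra1, the IL-11 receptor chain, rose from 2.10 ± 0.18 to 4.20 ± 0.17 (SD, n = 4), a difference of 2.11 (adjusted p = 0.000108, limma). Osmr, the oncostatin M receptor chain, was higher by 2.63 (adjusted p = 0.00362) and Lifr, the LIF receptor chain, by 0.97 (adjusted p = 0.00935). Named after their values were seen, Il6st, the shared chain gp130, was higher by 0.52 (adjusted p = 0.0337, limma) and Cntfr lower by -1.10 (adjusted p = 0.0435). With the replicate block 3 of these genes were higher and 0 lower, since Il6st (adjusted p = 0.0534, limma) and Cntfr (adjusted p = 0.0590) lost their calls.

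The gp130 ligands had 2 of 7 higher and 1 lower, with a median of 0.40. Il11, the ligand of the receptor chain that rose, was lower by -1.57 (adjusted p = 0.00194, limma), while Ctf1, which encodes cardiotrophin, was higher by 0.89 (adjusted p = 0.00473) and Lif by 1.07 (adjusted p = 0.0173). Growth hormone and haematopoietin receptors, which act through Jak2 and the STAT5 factors, had 0 of 6 higher and 0 lower, with a median of 0.03. Interferon, IL-4 and common-chain receptors had 2 of 12 measured genes higher and 2 lower, with a median of 0.0032. Il4ra, the receptor chain that recruits Stat6, was lower by -1.31 (adjusted p = 0.00134, limma), and Il10rb was higher by 1.005 (adjusted p = 0.00809). Il2rg, the common gamma chain, was not well above background on any Hoxa9-eGFP array and was at least 2.40-fold lower there. That bound takes, on each Hoxa9-eGFP array, its own signal or the array's lowest well-above-background signal, whichever is higher. Il2rg, counted among the 2 lower genes, passed the filter only through the eGFP arrays, being well above background on all 4. Its adjusted p is therefore not given.

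Of 12 PIAS proteins, phosphatases and adaptors 0 were higher and 1 was lower, with a median of -0.11. The one lower gene was Sh2b3, an adaptor that restrains Jak2, which read 3.08, 3.08, 2.61 and 2.73 with eGFP and 1.92, 1.87, 1.76 and 1.54 with Hoxa9-eGFP. Its groups did not overlap, and its difference was -1.10 (SE 0.17, adjusted p = 0.00319, limma).

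Genes linked to each STAT factor as targets were mixed. Of 15 measured STAT3-linked genes 3 were higher and 3 lower, with a median of 0.07, and with the replicate block the counts were 4 and 2. Timp1, a metalloproteinase inhibitor, was lower by -1.92 (adjusted p = 0.000312, limma), while the transcription factor genes Fos and Cebpd were higher by 1.53 (adjusted p = 0.00551) and 1.17 (adjusted p = 0.00552). Of 8 STAT5-linked genes 2 were higher and 0 lower, with a median of 0.03: Cish, given above, and the kinase gene Pim1, by 1.22 (adjusted p = 0.00807, limma). Pim1 is on the STAT3 list as well, and with the replicate block 2 STAT5-linked genes were higher and 1 lower. Of 6 measured STAT6-linked genes 0 were higher and 1 lower, which was Il4ra, with a median of -0.71, and with the replicate block 0 were higher and 2 lower.

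The partner and target genes of Stat2, most of them interferon-stimulated, had 6 of 18 measured genes higher and 0 lower, with a median of 0.61. Irf9, the DNA-binding partner of Stat2, read 0.70, 0.50, 0.30 and 0.49 with eGFP and 1.55, 1.47, 1.38 and 1.29 with Hoxa9-eGFP. Its groups were well apart, with a difference of 0.93 (SE 0.14, adjusted p = 0.00305, limma). Ifit3, an antiviral effector, was higher by 0.95 (adjusted p = 0.0113). Irf7, a factor that amplifies interferon production, was higher by 1.76 (adjusted p = 0.00604) and was well above background on 2 of the 4 eGFP arrays. Both groups had received lentivirus, the number of integrations is not given, and the part of the virus in these levels was not tested.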

How the data were processed

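The values are spot intensity from 8 scanner files, which the authors made with Agilent Feature Extraction 10.7.3.1, per the submitters' processing notes; per the file headers the background had been subtracted. Probe positions are mm9, and exons and UTRs are not stated because an mm9 annotation was not used. Log2 intensity was averaged over repeat spots and scaled by each array's 75th percentile, leaving out control and outlier spots, which removed 180 of 55681 probes. Between 69.6% and 77.5% of spots were well above background. Probes well above background on at least 4 arrays were kept, and the brightest stood for its gene. The deposited table of processed values (score), in which 86.1% to 87.3% of the authors' values had lost their decimal point, served only as an alternative. RefSeq updated 1711 names.

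The comparison used limma 3.58.1 (R 4.3.3) with the group as the only term, after a test on simulated data. The same-numbered arrays correlated at 0.129 to 0.228 in their deviations from the group means, all over the limit of 0.1. The numbers, given in the titles, were therefore taken to pair the samples, though 2 unlike pairs also passed the limit. The main fit leaves this pairing out, and the replicate block, reported beside it, includes it. With the block the calls of Jak1 and Stat2 were lost. Slides and leaving out each array were alternatives, as were other scalings, filters and probe rules. The 9 genes, the lists and the tests were chosen with earlier results of these data known. Named genes are the 9, their other family members, up to 3 called genes of lowest adjusted p from each other list, Hoxa9, and the 2 genes most correlated with each of the 9; other names were chosen after their values were seen. Of the genes this rule takes 1 is not reported here, though the totals of its lists include it.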

Additional observations from a re-analysis of the deposited data

Results flagged for a closer look

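Jak2 in Hoxa9-eGFP replicate 3, at a log2 level of 2.32, lay apart from the other 3 arrays of its group, of which the nearest was at 2.84 and the farthest at 2.90. The gap made up 0.902 of the group's range. It was 1 of 18 groups of 4 arrays looked at among the 9 genes, and chance alone gives about 1 in 20. Jak2 was called higher in 19 of 19 other settings, the one without this array included.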

How the results depend on the processing

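Jak2, Stat3 and Stat5a were called higher under all 19 alternatives with a test, Stat2 under 15 and Jak1 under 7, while Stat5b, Stat6, Socs2 and Socs3 were called under 0. The replicate block left 3 of the 9 genes higher, and leaving out 1 array left 3 to 5, with 3 without eGFP replicate 2, eGFP replicate 3 or Hoxa9-eGFP replicate 3. Leaving out 1 array left 1293 to 1889 genes lower over all genes, the fewest without eGFP replicate 2. The call of Jak1 was lost with the median of each array subtracted (0.56, adjusted p = 0.163), normexp background correction (0.46, 0.0693), no filter on dim probes (0.59, 0.0629), the replicate block (0.59, 0.0663) and the slide block (0.60, 0.0993), all by limma, and its difference was 0.50 to 0.65 without 1 array. Stat2 kept 0.91 in the replicate block but not its call (adjusted p = 0.0506, limma), with 0.78 to 1.04 without 1 array. The replicate block changed the call of no other of the 9 genes. Socs2 fell below 0 with the median subtracted (-0.026), normexp (-0.0096), the mean of its probes (-0.050), the slide block (-0.0020) and array weights (-0.064), and Stat6 with normexp (-0.012). Without 1 array the ranges were -0.10 to 0.14 for Socs2, -0.075 to 0.28 for Stat6 and -0.0089 to 0.50 for Socs3. Within slides 1, 2 and 3, values beyond the spread were 0.32 and 0.87 for Jak1 (slides 1 and 2), 0.71 for Jak2 (slide 3), 2.86 and 0.93 for Stat3 (1 and 2), 1.22 and 0.67 for Stat5a (1 and 3), 0.53 for Stat5b (3), -0.66 and 0.51 for Stat6, -0.66 and 0.55 for Socs2, and 1.29 and -0.95 for Socs3 (each 1 and 2). The cause of these changes was not tested.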
